A study of Mus musculus with 2 samples.

Results

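A group of 10 genes of WNT and R-spondin signalling, Wnt4, Wnt5a, Wnt6, Rspo1, Lgr4, Lgr5, Axin2, Znrf3, Ctnnb1 and Sfrp1, were followed across the germ and somatic cells of the mouse fetal ovary. They were chosen by gene symbol, and each of the 10 symbols matched 1 of the 27998 genes in both count tables. The cells came from ovaries at E15.5, either wild-type (WT) for the glucocorticoid receptor (GR, encoded by Nr3c1) or homozygous for its deletion (KO). All embryos of both groups were female and of the strain Tg(Pou5f1-EGFP)2Mnn Nr3c1tm1.1Jda, in which the transgene marks germ cells with GFP. The KO allele was made by constitutive β-actin Cre deletion of the floxed exon 3, and the deletion was not restricted to a cell type. The WT library pooled 4 embryos and the KO library pooled 2. Live GFP-positive germ cells were sorted and mixed with ovarian somatic cells at 60:40, and each pool gave 1 droplet library with 3′ counting of unique molecular identifiers (UMIs). There is therefore no replicate of either genotype, and the effect of genotype cannot be told apart from those of pooling, sorting and capture.

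WNT proteins are secreted ligands that bind Frizzled receptors and LRP co-receptors, which in the canonical branch spares β-catenin (Ctnnb1) from a destruction complex that contains Axin proteins. The ubiquitin ligases Znrf3 and Rnf43 remove Frizzled receptors from the cell surface, and R-spondins, through Lgr4, Lgr5 and Lgr6, hold these ligases back and so raise the response to WNT. In the fetal ovary, Rspo1 and Wnt4 are known as somatic signals of female sex determination, and Axin2 is widely used as a readout of β-catenin signalling because it is both a target and an inhibitor of it.

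The study's limits on genes, UMIs and mitochondrial share left 15502 KO cells and 9045 WT cells. Median depth was 15685 UMIs per WT cell and 10194 UMIs per KO cell. Of the deposited barcodes, 75 occurred in both libraries, and 27 of these were among the kept cells. Clusters were named from marker genes, with all 74 genes of the WNT pathway lists withheld from the clustering, so that the classes were not built from the genes described here. Germ-like cells numbered 6790 in WT and 10199 in KO, granulosa-like cells 941 and 2039, theca-like (stromal) cells 839 and 1932, and epithelia-like cells 399 and 1092. Endothelia-like, immune-like and erythroid-like cells were few, between 15 and 136 in a library. Foxl2, which defines granulosa cells, was low in granulosa-like cells. A finer clustering, described below, split this class into a larger and a smaller cluster. In WT, Foxl2 was at 2.36 counts per 1000000 UMIs (CPM) in the larger and 9.63 CPM in the smaller. The listed markers Esr2 and Lhx2 were at 0.196 and 0.491 CPM in the larger, and at 2.41 and 1.20 CPM in the smaller. The class name rests on the other 7 of 10 listed markers, Fst, Kctd14, Amhr2, Irx3, Irx5, Kitl and Hes1. Nr3c1, the deleted gene, was at 71.9 CPM in WT and 11.6 CPM in KO germ-like cells, and it was lower in KO in each of the 4 main classes. These counts come from the 3′ end and do not themselves test for the deleted exon.

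Transcripts that mark a class were also counted in cells of another, here called carry-over. In germ-like cells, 22 somatic marker genes had a median of 0.578% of the level in their own class in WT (0.183% to 4.38%) and of 0.682% in KO (0.334% to 5.15%). In the other direction, 10 germ markers reached a median of 11.6% of their germ-like level in WT granulosa-like cells, 15.3% in theca-like cells and 9.81% in epithelia-like cells, and 16.8%, 22.8% and 12.0% in KO. CPM values below are sums over the cells of a class, and all brackets are exact 95% intervals of counting error. Each transcript is counted at its 3′ end without scaling by length, so levels are compared between cell types and not between genes.

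The genes lie on 8 chromosomes of GRCm38 and are all annotated as protein-coding. Wnt4 (chr4:137277489-137299726, plus strand) and Rspo1 (chr4:124986430-125009099, plus strand) share a chromosome, as do Axin2 (chr11:108920349-108950783, plus strand) and Znrf3 (chr11:5276324-5444847, minus strand). Promoter windows from RefSeq on GRCm38.p6, running from 250 bases before to 50 bases after a start site, were present for Wnt4, Wnt6, Rspo1, Lgr4, Axin2 and Ctnnb1. Their GC content was 58.3% to 84.3%. Shown here are 2 members on the receiving side whose transcripts were above the carry-over range in germ-like cells, Axin2 at chr11:108920099-108920398 and Lgr4 at chr2:109917397-109917696, both on the plus strand and read 5′ to 3′. Capitals mark AGAACA, a half-site of the GR binding motif.
Axin2: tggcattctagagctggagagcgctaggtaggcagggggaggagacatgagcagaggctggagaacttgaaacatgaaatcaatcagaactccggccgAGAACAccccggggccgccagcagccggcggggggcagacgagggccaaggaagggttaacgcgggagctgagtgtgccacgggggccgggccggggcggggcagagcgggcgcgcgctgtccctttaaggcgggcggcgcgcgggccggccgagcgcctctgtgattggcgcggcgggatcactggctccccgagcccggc
Lgr4: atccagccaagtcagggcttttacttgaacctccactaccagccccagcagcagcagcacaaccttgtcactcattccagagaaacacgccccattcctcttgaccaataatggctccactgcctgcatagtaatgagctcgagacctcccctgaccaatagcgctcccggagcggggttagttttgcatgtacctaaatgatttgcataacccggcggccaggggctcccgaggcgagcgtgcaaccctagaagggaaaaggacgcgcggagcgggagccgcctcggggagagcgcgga
Searched on both strands, AGAACA (reverse complement TGTTCT) was found in 1 of the 7 windows, that of Axin2 at position 99 from its 5′ end, and in 19.0% of all 32851 promoter windows. The TCF/LEF motif CTTTGAT (reverse complement ATCAAAG) was in none of the 7 windows and in 3.73% of all windows. Its core CTTTG (reverse complement CAAAG), which the longer motif contains, was likewise in none, against 53.9% of all windows. The 7 windows include 2 overlapping windows of Ctnnb1. All 7 had a higher GC content than the median of all windows, 52.7%, and the part of GC content in these counts was not tested. These are matches of letters within 300 bases and are given as a description.

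The WNT ligands were expressed by somatic cells, each with its own pattern. Wnt4 was shared by theca-like and granulosa-like cells, Wnt5a was highest in theca-like cells, and Wnt6 was highest in granulosa-like cells followed by epithelia-like cells. In germ-like cells, all 3 were within the carry-over range of somatic markers.

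Wnt4, the ligand needed for normal ovarian differentiation, was at 280 CPM (269-290) in theca-like and 267 CPM (258-276) in granulosa-like cells of WT, and at 265 CPM (257-273) and 251 CPM (244-258) in KO. These neighbours differed by less than counting error in WT (log2 theca-like over granulosa-like 0.07, -0.01 to 0.14). Epithelia-like cells had 55.7 CPM in WT and 56.5 CPM in KO, so that in WT the theca-like level was 5.02-fold the epithelia-like level. Germ-like cells had 5.73 CPM in WT and 6.08 CPM in KO, which is 2.05% and 2.29% of the theca-like level. Wnt4 was not even within germ-like cells: it was at 11.5 CPM (9.14-14.3) in cluster 9 and 8.28 CPM (6.93-9.82) in cluster 5 of WT, against 3.64 to 6.97 CPM in the other germ-like clusters, and KO gave 10.2 and 8.11 CPM in the same clusters.

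Wnt5a, a ligand best known for signalling without β-catenin, was at 121 CPM (115-128) in theca-like cells of WT and 109 CPM (104-114) in KO. Epithelia-like cells followed at 39.7 and 40.6 CPM and granulosa-like cells at 12.8 and 10.7 CPM, an order that was the same in both libraries with every step beyond counting error. Theca-like cells thus had 9.47-fold the granulosa-like level of Wnt5a in WT and 10.2-fold in KO. The ratio of the epithelia-like to the theca-like level was 0.327 in WT and 0.372 in KO. Theca-like markers reached up to 33.3% of their own level in WT epithelia-like cells and 36.1% in KO. The part of carry-over in the epithelia-like Wnt5a level was not tested. With each cell thinned to 3000 UMIs, 31.0% of WT and 27.6% of KO theca-like cells had at least 1 UMI of Wnt5a.

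Wnt6 was at 695 CPM (681-710) in granulosa-like cells of WT and 670 CPM (659-682) in KO, and at 379 and 346 CPM in epithelia-like cells. At least 1 UMI was present in 98.8% of WT and 97.7% of KO granulosa-like cells, and in 84.3% and 85.0% after thinning to the same depth. Theca-like cells had 35.9 and 34.8 CPM, 19.3-fold below granulosa-like cells in each library. That theca-like level depended on which cells were kept, and was 12.0 CPM in WT and 16.1 CPM in KO without cells carrying markers of another class. In germ-like cells it was at 4.21 CPM in WT and 5.38 CPM in KO, or 0.605% and 0.803% of the granulosa-like level. Wnt4 and Wnt6 therefore shared granulosa-like cells, while Wnt4 was also high in theca-like and Wnt6 in epithelia-like cells. The ratio of the epithelia-like to the granulosa-like level of Wnt6 was 0.545 in WT and 0.516 in KO. Granulosa-like markers were at 4.09% to 80.9% of their own level in WT epithelia-like cells and at 5.43% to 80.8% in KO. The part of carry-over in the epithelia-like Wnt6 level was not tested.

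**Figure D1:**
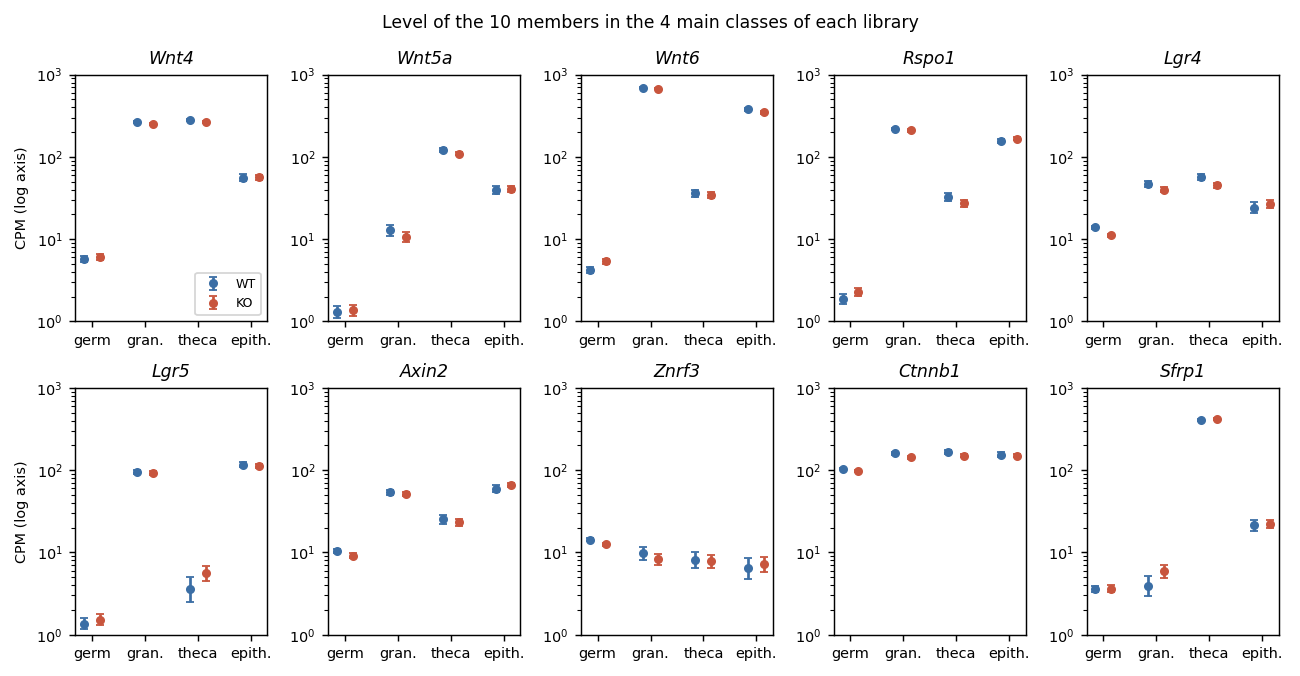
Level of each of the 10 genes, in CPM on a log axis, in germ-like, granulosa-like (gran.), theca-like and epithelia-like (epith.) cells of the WT library (blue) and the KO library (red). Points are sums over cells and bars exact 95% Poisson intervals of counting error, and the gap between cell types is larger than the gap between libraries for most genes, as for Wnt6 with 695 and 670 CPM in granulosa-like against 35.9 and 34.8 CPM in theca-like cells.

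Rspo1, the R-spondin whose loss in mice leads to partial sex reversal of the ovary, had the same class order as Wnt6. It was at 217 CPM (209-226) in granulosa-like, 156 CPM (147-165) in epithelia-like and 32.8 CPM (29.3-36.6) in theca-like cells of WT. The KO values were 209, 166 and 27.4 CPM. The step from granulosa-like to epithelia-like cells was 1.40-fold in WT and 1.26-fold in KO, both beyond counting error. Granulosa-like markers reached up to 80.9% of their own level in WT epithelia-like cells and 80.8% in KO. The part of carry-over in the epithelia-like Rspo1 level was not tested. Germ-like cells had 1.87 and 2.28 CPM, or 0.859% and 1.09% of the granulosa-like level, which lies within the carry-over range.

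The R-spondin receptors differed from each other. Among the 4 main classes, Lgr5 was above the carry-over range in granulosa-like and epithelia-like cells, while Lgr4 was found in every one of the 4. Lgr5, a receptor that is itself a common WNT target, was at 116 CPM (108-124) in epithelia-like and 95.2 CPM (89.9-101) in granulosa-like cells of WT, and at 113 and 92.2 CPM in KO. Its theca-like level was 3.57 CPM (2.49-4.97) in WT and 5.58 CPM (4.47-6.88) in KO, 3.09% and 4.94% of the epithelia-like level. Epithelial markers were at 0.129% to 9.99% of their own level in WT theca-like cells and at 0.434% to 6.66% in KO, so Lgr5 in theca-like cells could not be told from carry-over. Its germ-like level, 1.36 and 1.53 CPM, was also in that range.

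Lgr4, the more widely expressed paralogue, was at 56.4 CPM (51.8-61.3) in theca-like, 46.5 CPM (42.8-50.4) in granulosa-like and 24.2 CPM (20.8-28.0) in epithelia-like cells of WT. KO cells had 45.3, 39.7 and 26.6 CPM in the same order. Germ-like cells had 13.9 CPM (13.3-14.6) in WT and 11.1 CPM (10.5-11.7) in KO. That is 24.7% and 24.5% of the theca-like level, above the highest of the 22 somatic markers in germ-like cells.

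The granulosa-like class was not uniform for Lgr5. At the finer clustering resolution of 1.0 it split into cluster 0, with 719 WT and 1701 KO cells, and cluster 15, with 219 and 331. Lgr5 was at 117 CPM (110-124) in cluster 0 and 7.62 CPM (4.59-11.9) in cluster 15 of WT, a ratio of 15.3. In KO it was at 106 CPM (101-111) and 11.5 CPM (7.82-16.3), a ratio of 9.23. Lgr5 had no part in making these clusters, whose leading genes were Gng13, Calb1 and Ly6d for cluster 0 and Ramp1, Col18a1 and Col3a1 for cluster 15. Foxl2 was higher in cluster 15, at 9.63 against 2.36 CPM in WT and 5.94 against 2.10 CPM in KO.

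Of the other members, Lgr4, Wnt5a, Sfrp1 and Rspo1 also differed between these clusters beyond counting error in both libraries. Wnt5a and Sfrp1 did so at low levels and Rspo1 by a small ratio. Wnt4 and Wnt6 differed beyond counting error in WT but not in KO. Rspo1 was at 223 CPM in cluster 0 and 198 CPM in cluster 15 of WT (log2 ratio 0.17, 0.03 to 0.32). In KO it was at 213 and 186 CPM (0.19, 0.06 to 0.33). Wnt5a was at 13.7 CPM in cluster 0 and 8.42 CPM in cluster 15 of WT (log2 ratio 0.71, 0.04 to 1.44) and at 11.9 and 4.08 CPM in KO (1.55, 0.67 to 2.57). Sfrp1 was lower in cluster 0, at 3.14 against 7.22 CPM in WT (-1.20, -2.08 to -0.28) and 5.27 against 9.65 CPM in KO (-0.87, -1.52 to -0.18). Theca-like markers were at 0.139% to 9.84% of their own level in WT granulosa-like cells and at 0.747% to 8.91% in KO. The part of carry-over in the Wnt5a and Sfrp1 levels of these clusters was not tested. Axin2 was at 53.6 CPM in cluster 0 and 53.4 CPM in cluster 15 of WT (log2 ratio 0.01, -0.27 to 0.29), and at 50.8 and 57.5 CPM in KO. Wnt6 was at 715 and 618 CPM in WT (0.21, 0.13 to 0.29) and at 676 and 655 CPM in KO (0.05, -0.03 to 0.12). Wnt4 was at 261 and 294 CPM in WT (-0.18, -0.29 to -0.06) and at 251 and 249 CPM in KO (0.01, -0.11 to 0.13). Lgr4 went the other way from Lgr5, with 42.5 CPM in cluster 0 and 62.2 CPM in cluster 15 of WT and 36.7 and 57.5 CPM in KO. The Lgr5-poor granulosa-like cells thus held as much Axin2 transcript as the Lgr5-rich ones, within these intervals, and more Lgr4.

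**Figure D2:**
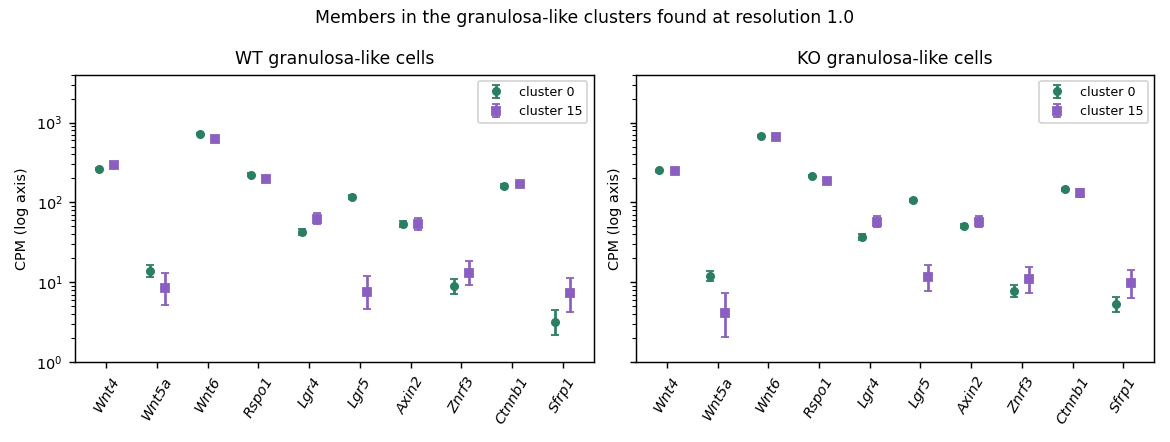
Level of the 10 genes, in CPM on a log axis, in cluster 0 (circles) and cluster 15 (squares) of the granulosa-like cells, with WT at left and KO at right. Bars are exact 95% Poisson intervals of counting error. Lgr5 separates the clusters, at 117 against 7.62 CPM in WT, while Axin2 overlaps at 53.6 and 53.4 CPM.

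Znrf3, the ligase that R-spondins restrain, was the only member whose level was higher in germ-like cells than in each of the other 3 main classes. It was at 14.3 CPM (13.7-15.0) in WT and 12.6 CPM (12.0-13.2) in KO germ-like cells. Granulosa-like cells had 9.75 CPM (8.11-11.6) and 8.22 CPM, theca-like cells 8.17 and 7.89 CPM, and epithelia-like cells 6.52 and 7.16 CPM. The germ-like level was 1.47-fold the granulosa-like level in WT and 1.53-fold in KO, and the somatic classes were not separated from their neighbours beyond counting error. Granulosa-like cells were above epithelia-like cells beyond counting error in WT (log2 ratio 0.58, 0.09 to 1.09) but not in KO (0.20, -0.17 to 0.58). The germ-like level was 147% of the granulosa-like, 175% of the theca-like and 220% of the epithelia-like level in WT, so the somatic-like cells held far more Znrf3 relative to germ-like cells than they held of the germ markers. At least 1 UMI was seen in 21.2% of WT germ-like cells, and in 4.33% after thinning, against 2.51% to 3.10% in the somatic classes.

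Ctnnb1, which encodes β-catenin of both WNT signalling and cell junctions, was the most even of the members across classes. It was at 103 CPM (102-105) in germ-like, 161 CPM (154-168) in granulosa-like cells, 166 CPM (158-175) in theca-like cells and 154 CPM (145-164) in epithelia-like cells of WT. In KO these levels were 98.0, 143, 149 and 150 CPM. No pair of the 3 somatic classes separated beyond counting error in either library, and their order differed between the libraries. The few endothelia-like cells had 321 CPM (266-384) in WT and 242 CPM (217-269) in KO, the highest level of Ctnnb1 in any class.

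Axin2, the readout, was highest in epithelia-like cells at 59.4 CPM (53.9-65.2) in WT and 65.8 CPM (61.6-70.3) in KO, and next in granulosa-like cells at 53.6 CPM (49.7-57.8) and 51.6 CPM (48.4-54.9). These were also the 2 classes with the highest levels of Lgr5, Rspo1 and Wnt6. The step between them lay within counting error in WT (log2 0.15, -0.03 to 0.32) and beyond it in KO (log2 0.35, 0.22 to 0.48). Theca-like cells had 25.4 and 23.3 CPM. Germ-like cells had 10.5 CPM (9.93-11.1) in WT and 9.17 CPM (8.64-9.72) in KO, 17.7% and 13.9% of the epithelia-like level and above the carry-over range of somatic markers.

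Within the germ-like cells, the level of Axin2 was highest in cluster 9, although most of its UMIs lay in other clusters. Cluster 9 gave 167 of the 1265 Axin2 UMIs of WT germ-like cells and 316 of the 1115 in KO. This cluster held 284 WT and 649 KO cells, and stood out by Stra8, the gatekeeper of meiotic entry, at 1643 CPM in WT and 1545 CPM in KO. It also had the highest levels of the meiotic cohesin gene Rec8 (159 and 152 CPM) and of the pluripotency gene Sox2 (24.7 and 29.7 CPM), and the lowest levels of Sycp1, which encodes a synaptonemal complex protein. Not every listed marker of these kinds was highest there. The pluripotency gene Pou5f1 was at 61.8 CPM in WT, against 63.4 CPM in cluster 2. Of the listed genes of meiotic entry, Meioc was at 330 CPM in WT, against 492 CPM in cluster 6. Ythdc2 was lowest in cluster 9, at 96.4 CPM in WT and 111 CPM in KO. Axin2 in cluster 9 was at 23.7 CPM (20.3-27.6) in WT and 28.7 CPM (25.6-32.0) in KO, close to the theca-like level. In cluster 5, the next in order of Stra8 at 692 CPM in WT, it was at 3.89 CPM (2.98-4.99) and 2.92 CPM (2.32-3.64), the lowest of all germ-like clusters. The ratio of cluster 9 to cluster 5 was 6.10 in WT and 9.80 in KO.

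This contrast was as large without suspected doublets. The log2 ratio was 2.61 in WT and 3.29 in KO, 2.65 and 3.61 without cells called as doublets by Scrublet, and 2.66 and 3.39 without cells that carried markers of another class. The 6 members whose germ-like level lay within the carry-over range were not uniform in cluster 9. Sfrp1 was at 8.81 CPM (6.75-11.3) in WT and 7.89 CPM (6.32-9.73) in KO, and Wnt4 at 11.5 and 10.2 CPM, each the highest of the 7 germ-like clusters. Rspo1 was at 2.27 and 5.90 CPM, Wnt5a at 1.70 and 1.45 CPM, Wnt6 at 2.84 and 8.89 CPM, and Lgr5 at 0.852 and 3.08 CPM. The part of carry-over in the Axin2 level of cluster 9 was not tested. In the clusters lowest in Stra8, Axin2 was again higher than in cluster 5, with 12.6 and 12.7 CPM in cluster 2 and 12.1 and 9.82 CPM in cluster 1.

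The other receiving genes followed different courses through the germ-like clusters. Znrf3 was at 22.9 CPM (18.9-27.4) in WT and 16.8 CPM (14.9-18.8) in KO in cluster 6 and at 19.9 CPM (17.8-22.3) and 16.4 CPM (14.9-18.0) in cluster 5, with overlapping intervals, and lowest in cluster 1, at 10.4 and 8.56 CPM. Lgr4 was at 16.4 CPM (14.9-17.9) and 14.5 CPM (12.8-16.5) in cluster 2, with cluster 1 overlapping it at intervals of 14.0-17.2 CPM and 10.8-13.8 CPM, and at 10.1 and 9.58 CPM in cluster 5. Ctnnb1 moved little, from 91.3 to 121 CPM over the WT clusters. Clusters 6 and 8 were unequal between the libraries: cluster 6 held 7.25% of WT and 18.9% of KO germ-like cells, and cluster 8, with a median of 28417 UMIs in WT, held 12.2% and 2.21%.

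**Figure D3:**
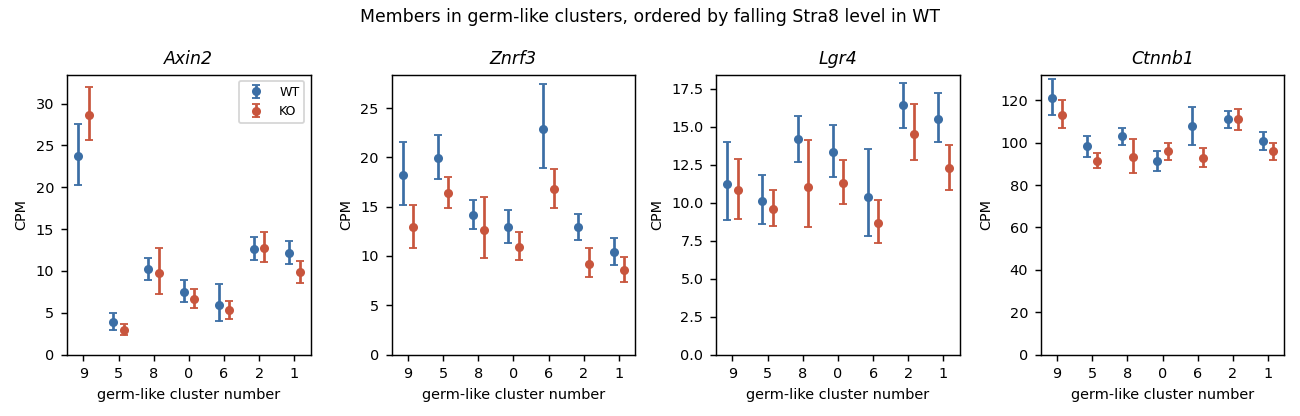
Level in CPM of Axin2, Znrf3, Lgr4 and Ctnnb1 in the 7 germ-like clusters, ordered from left to right by falling Stra8 level in WT, for WT (blue) and KO (red). Bars are exact 95% Poisson intervals of counting error. Axin2 is highest in cluster 9, at 23.7 CPM in WT and 28.7 CPM in KO, and lowest in cluster 5, at 3.89 and 2.92 CPM.

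Sfrp1, a secreted inhibitor that binds WNT ligands, had the widest gap among the members between its highest class and the next. It was at 407 CPM (394-419) in theca-like cells of WT and 415 CPM (405-425) in KO, 19.1-fold and 18.9-fold the epithelia-like levels. Granulosa-like cells had 3.93 CPM (2.92-5.18) and 5.91 CPM (4.88-7.09), and germ-like cells 3.60 and 3.63 CPM. The theca-like cells therefore held Wnt5a and the inhibitor Sfrp1 together with Wnt4, and little Wnt6, Rspo1 or Lgr5.

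The 10 genes divided by whether their germ-like level lay above the range of the somatic markers. Wnt4, Wnt5a, Wnt6, Rspo1, Lgr5 and Sfrp1 had germ-like levels of 0.605% to 2.05% of their highest main somatic class in WT and of 0.803% to 2.29% in KO, inside the range of the 22 somatic markers. Lgr4, Axin2, Ctnnb1 and Znrf3 were above it in both libraries. A level inside the range does not show that germ cells lack the transcript. Without cells carrying markers of another class, WT germ-like Wnt4, Wnt5a and Sfrp1 were at 5.28, 1.25 and 3.59 CPM (5.73, 1.31 and 3.60 before). Wnt6, Rspo1 and Lgr5 were then at 2.79, 1.46 and 1.00 CPM (4.21, 1.87 and 1.36 before). The plot of germ-like levels as percentages shows both groups.

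**Figure D4:**
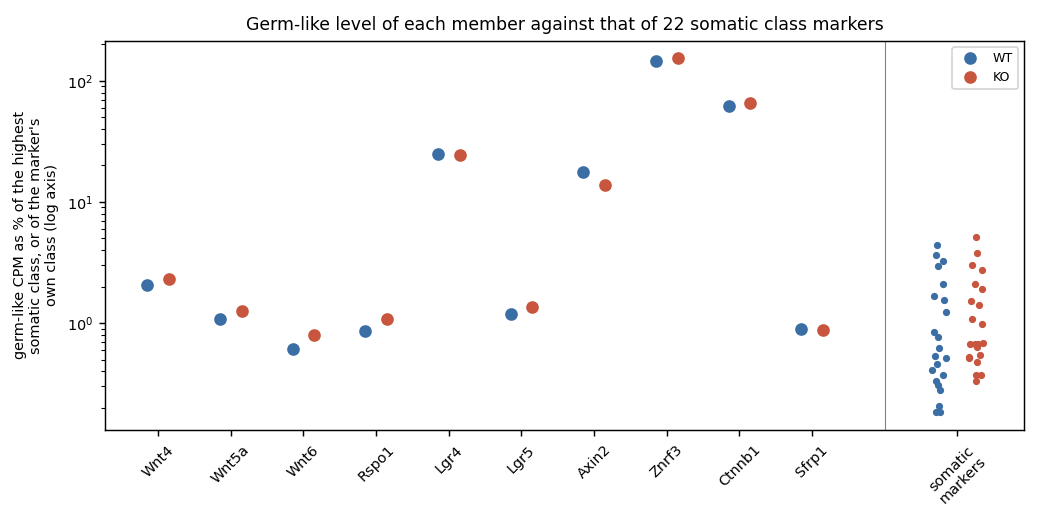
Germ-like level of each of the 10 genes as a percentage of its level in the highest of the 3 main somatic classes, on a log axis, for WT (blue) and KO (red). The small points at right are 22 somatic marker genes, each as a percentage of its own class, from 0.183% to 4.38% in WT, and Lgr4, Axin2, Znrf3 and Ctnnb1 lie above them.

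The comparison of KO with WT asked whether these genes moved when GR was deleted. A gene was called when its CPM ratio was at least 1.5 in either direction with at least 100 UMIs over both libraries in the class. All 10 members passed this limit in each of the 4 main classes, and 2 of the 40 pairs of gene and class were called. None of the 10 was called in germ-like cells, where 5.39% of 13793 genes were. In granulosa-like cells 1 of 10 was called against a background of 3.80%, in theca-like cells 1 of 10 against 4.45%, and in epithelia-like cells 0 of 10 against 2.14%. The members' median log2 ratio was 0.03 in germ-like, -0.07 in granulosa-like cells, -0.10 in theca-like cells and 0.04 in epithelia-like cells, beside -0.05, -0.02, 0.01 and 0.03 over all genes with enough UMIs.

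Both called pairs were at low levels. Sfrp1 in granulosa-like cells rested on 50 UMIs in WT and 115 in KO (log2 ratio 0.59, 0.10 to 1.10), and the ratio was 0.42 without regression, 0.41 without cells carrying markers of another class and 0.21 with thinned cells. Lgr5 in theca-like cells rested on 35 and 87 UMIs (log2 ratio 0.64, 0.06 to 1.25), and the ratio was 0.06 when clusters were made without regression and 0.29 without cells carrying markers of another class. In the classes that hold most of their transcripts, Sfrp1 in theca-like cells had a log2 ratio of 0.03 and Lgr5 in epithelia-like cells of -0.03 (-0.16 to 0.09). Beside them, the median level of theca-like markers in granulosa-like cells was 1.67% of their own in WT and 3.25% in KO, and that of epithelial markers in theca-like cells 0.878% and 1.56%. The part of carry-over in these ratios was not tested.

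The smaller ratios of several members are given here with their intervals. For Lgr4, KO was below WT by a log2 ratio of -0.33 (-0.43 to -0.22) in germ-like, -0.23 (-0.38 to -0.07) in granulosa-like and -0.32 (-0.48 to -0.15) in theca-like cells, with 0.14 (-0.13 to 0.40) in epithelia-like cells. Without cells carrying another class's markers, Lgr4 was at 50.8 CPM (46.0-56.1) in WT and 47.9 CPM (43.7-52.5) in KO granulosa-like cells. In theca-like cells it was then at 56.3 CPM (49.8-63.4) and 47.7 CPM (42.9-53.0), and both pairs of intervals overlap. Germ markers reached higher percentages in KO than in WT in these classes, and their part in the ratios was not tested. Axin2 had a log2 ratio of -0.20 (-0.31 to -0.08) in germ-like cells, -0.06 (-0.20 to 0.09) in granulosa-like cells and 0.15 (-0.02 to 0.32) in epithelia-like cells. Znrf3 had -0.19 (-0.29 to -0.09) in germ-like cells, and Ctnnb1 had -0.08 (-0.11 to -0.04), -0.17 (-0.25 to -0.09) and -0.16 (-0.25 to -0.07) in germ-like, granulosa-like and theca-like cells. It had -0.41 (-0.71 to -0.09) in the few endothelia-like cells. In germ-like cells Wnt6 had 0.36 (0.19 to 0.53) and Rspo1 0.29 (0.03 to 0.55), while Wnt4, with 0.09 (-0.07 to 0.24), and Wnt5a, with 0.06 (-0.27 to 0.38), lay within counting error of 0. The markers of granulosa-like cells were at a median of 0.845% in WT and 1.08% in KO germ-like cells, and their part in these ratios was not tested. None of these differences reached 1.5-fold, although Wnt6 in germ-like cells did so with common limits on cells (0.59), and with 1 library of each genotype none has a replicate check.

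Because the germ-like clusters were taken up unevenly by the libraries, the ratios were also read within each of them. Lgr4 and Znrf3 were lower in KO in 7 of 7 clusters, with log2 ratios of -0.37 to -0.06 and -0.50 to -0.16. Of 13793 genes, 9.54% were lower in KO in all 7. Wnt6 was higher in KO in 7 of 7, from 0.23 to 1.65, as were 6.95% of genes. Axin2 was lower in 5 of 7, from -0.41 to 0.27.

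**Figure D5:**
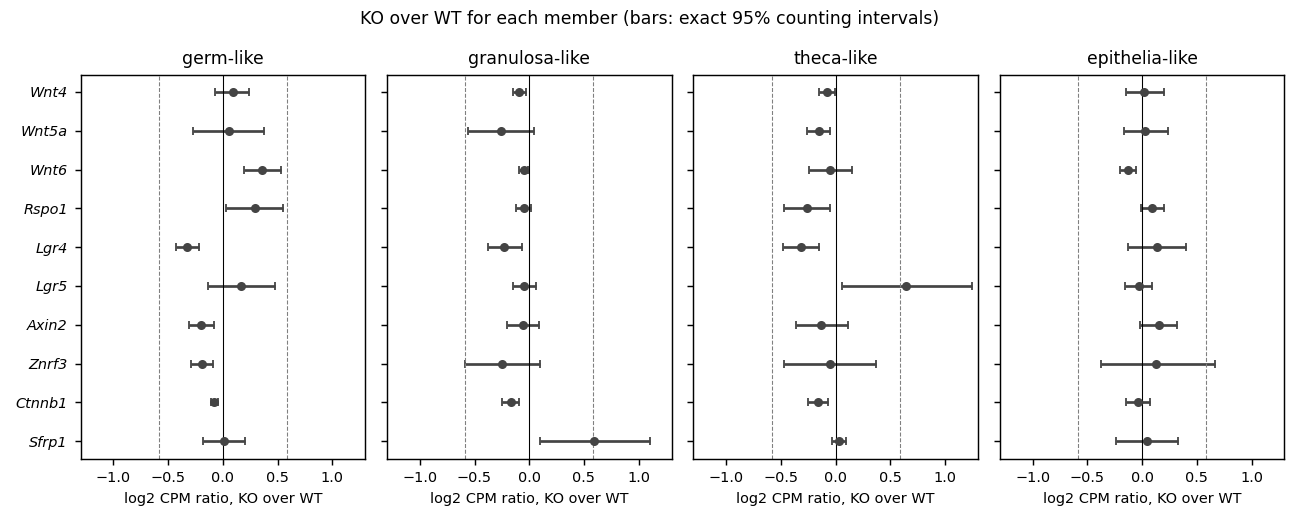
Log2 ratio of CPM, KO over WT, for the 10 genes in the 4 main classes. Points are ratios, bars are exact 95% intervals of counting error, and dashed lines mark 1.5-fold in either direction, which Sfrp1 in granulosa-like cells (0.59) and Lgr5 in theca-like cells (0.64) pass.

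The wider pathway was described by 9 lists with 74 genes in all. Those with at least 100 UMIs numbered 53 in germ-like cells, 41 in granulosa-like cells, 42 in theca-like cells and 41 in epithelia-like cells. Of them 5 (9.43%), 1 (2.44%), 6 (14.3%) and 0 were past 1.5-fold, beside 5.39%, 3.80%, 4.45% and 2.14% of all genes in the same classes. Their median log2 ratios were -0.07, -0.12, -0.07 and 0.01.

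On the sending side, Wls, the carrier needed for secretion of WNT proteins, was at 123 CPM in granulosa-like cells, 110 CPM in theca-like cells and 151 CPM in epithelia-like cells of WT, and at 1.36 CPM in germ-like cells. Porcn, which attaches the lipid of WNT ligands, was at up to 3.06 CPM in WT. Rspo3, another R-spondin, was at 13.0 CPM in WT theca-like cells with 127 UMIs, of which 19 came from a single cell, against 77 UMIs in KO (log2 ratio -1.39, -1.82 to -0.97).

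On the receiving side, Fzd2 was at 84.4 CPM in theca-like and 5.01 CPM in germ-like cells of WT. Ryk, an atypical WNT receptor, was at 91.1 CPM in epithelia-like, 83.3 CPM in theca-like, 62.2 CPM in granulosa-like and 50.7 CPM in germ-like cells. Among receptors in germ-like cells, 4 of 13 were past 1.5-fold, beside 5.39% of all genes: Fzd1 (log2 ratio -0.68), Fzd2 (-0.60) and the co-receptor gene Lrp5 (-0.73) were lower, and Ror2, on 53 and 85 UMIs, was higher (0.67). The nuclear cofactor gene Bcl9l was also lower there (-0.61). Fzd8 was higher in KO theca-like cells (0.74, on 47 and 125 UMIs).

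Of 10 common targets, those with enough UMIs numbered 10 in germ-like, 9 in granulosa-like cells, 8 in theca-like cells and 9 in epithelia-like cells, and 2 of the 8 in theca-like cells were past 1.5-fold, beside 4.45% of all genes, with 0 in the other classes. The 2 were Lgr5 and Ccnd1, a cyclin gene with a log2 ratio of -0.78 (-1.17 to -0.40). Nkd1, a negative-feedback target, was at 101 CPM in theca-like, 82.0 CPM in granulosa-like, 83.8 CPM in epithelia-like and 42.5 CPM in germ-like cells of WT, and so did not share the low theca-like level of Axin2. Among inhibitors, Sfrp2 and Dkk3 were lower in KO theca-like cells, by log2 ratios of -0.65 (178 and 180 UMIs) and -0.63 (97 and 100 UMIs).

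Tcf7l2, a DNA-binding partner of β-catenin, was at 67.8 CPM in granulosa-like, 59.2 CPM in theca-like, 44.6 CPM in epithelia-like and 1.58 CPM in germ-like cells of WT. Csnk1a1, a kinase of the destruction complex, was at 333 CPM in theca-like, 307 CPM in granulosa-like, 295 CPM in epithelia-like and 300 CPM in germ-like cells of WT. Bcl9, a β-catenin cofactor gene, was at 47.4, 35.8, 37.1 and 32.4 CPM in the same classes.

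In theca-like cells, the libraries differed in makeup. At the finer resolution, cluster 16, whose leading genes were the germ genes Smc1b, Sycp1 and Syce3, held 6.02% of WT and 16.8% of KO theca-like cells. Wnt4 was 1.69-fold and 2.28-fold lower in it than in the main theca-like cluster, and Sfrp1 2.46-fold and 2.24-fold lower, in WT and KO. Within the main theca-like cluster, Wnt4 was at 309 CPM (296-323) in WT and 344 CPM (331-356) in KO, and Sfrp1 at 456 CPM (441-473) and 535 CPM (519-551), so both were higher in KO there although their ratios over the whole class were -0.08 and 0.03. Lgr4 was at 59.6 CPM (54.0-65.7) and 55.8 CPM (50.8-61.2) in the same cluster, which overlap, and at 52.8 and 33.1 CPM in cluster 16.

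The profile of each member was compared with that of 15408 genes over 21 combinations of cluster and library with at least 100 cells, which share libraries and the clustering. By Pearson's r on log2(CPM + 1), the genes most like Wnt6 were Serpina3a (0.993), Smpx (0.992) and Amhr2 (0.991), the last being a marker used to name granulosa-like cells. Those most like Rspo1 were Lgals7 (0.995), Serpinb6b (0.990) and Rasl11a (0.990). For Wnt4 they were Srgap3 (0.988), Lbx2 (0.983) and AU020206 (0.981), and for Wnt5a Rbms3 (0.993), Cdh11 (0.992) and C1qtnf7 (0.991). Sfrp1 was most like Il33 (0.988), the theca-like marker Mfap4 (0.979) and Unc5c (0.978).

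Lgr5 was most like Mia (0.992), Nr0b2 (0.989) and Vsnl1 (0.988), and Mia was also among the leading genes of granulosa-like cluster 0. Lgr4 was most like Angptl4 (0.961), Dpf3 (0.960) and AI427809 (0.959). The genes most like Axin2 were Gnpda1 (0.976), Ccdc106 (0.966) and Adi1 (0.964). Those most like Ctnnb1 were Itga5 (0.975), Plekho1 (0.971) and Rapgef3 (0.969), and those most like Znrf3 were Avl9 (0.958), Capn7 (0.948) and Tmem245 (0.945). No member was among the 3 genes most like another member.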

How the data were processed

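The authors deposited raw UMI counts for every gene in every barcode, 1 library of each genotype, without normalization. The file headers name Cell Ranger 3.0.2, and the labels give mm10 as the genome. The submitters' processing notes name Seurat 3.2.3. Cells were kept by the study's limits: for WT 1500 to 6500 genes and 5500 to 40000 UMIs, for KO 1200 to 5500 genes and 3000 to 30000 UMIs, and under 10% mitochondrial UMIs. These limits differ between the libraries, and no doublet caller was applied in the values reported. Counts were scaled to 10000 per cell and logged, 2000 variable genes were taken without the 74 WNT pathway genes, depth, gene number, mitochondrial and ribosomal shares were regressed out, and Leiden clustering (resolution 0.5, 30 components, 20 neighbours, seed 1) was run in scanpy 1.11.5. A cluster took a class name, ending in -like, if 3 or more markers of that class were in at least 10% of its cells at over 2-fold. Perivascular cells formed no cluster of their own at this resolution and lie within the theca-like class. The names were rebuilt here, and can differ from those of the study for that reason. Cluster numbers at resolution 1.0 are those of a separate clustering.

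UMIs were summed per class and library, and ratios carry exact conditional intervals from scipy 1.17.1. With 1 library per group no test was run, cells were not treated as replicates, and intervals cover counting error only. Ratios and intervals were checked on simulated counts with known answers. Those counts were independent Poisson draws, so the check does not cover UMIs of a gene that gather in single cells. The members, gene lists and call rule were chosen with earlier results of these data known. Named genes were the 10 members, per pathway list the 2 highest in WT and those past 1.5-fold, and per member the 3 most alike by profile. The germ-like cluster contrasts, the granulosa-like cluster contrast and levels of listed genes set beside them (Wls in germ-like cells, Nkd1) were picked after their values were seen. Gene coordinates are from GENCODE M21.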

Additional observations from a re-analysis of the deposited data

Results flagged for a closer look

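For 2 genes, KO over WT log2 ratios lay on opposite sides of 0 in different cell classes, with counting intervals that left out 0 in each. The difference between classes was not tested, since there is 1 library of each genotype. Wnt6 had a log2 ratio of 0.36 in germ-like cells, -0.05 in granulosa-like cells and -0.13 in epithelia-like cells. Rspo1 had a log2 ratio of 0.29 in germ-like cells and -0.26 in theca-like cells. The germ-like levels behind these values, 4.21 and 5.38 CPM for Wnt6 and 1.87 and 2.28 CPM for Rspo1 in WT and KO, were within the carry-over range of somatic markers. Somatic-like cells made up more of the KO library, in which germ-like cells were 65.8% of cells against 75.1% in WT, and the part of this in the ratios was not tested.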

How the results depend on the processing

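No paired analysis was possible because each genotype has 1 library. For the members, 2 pairs of gene and class were past 1.5-fold. This count was 0 without regression, at resolution 1.0, with cells thinned to 3000 UMIs, with means over cells, and without cells carrying another class's markers, 1 with WNT genes allowed in the clustering, and 3 with common limits on cells, under which Wnt6 in germ-like cells joined. Without Scrublet doublets it was again 2 but not for the same pairs, since Lgr5 in theca-like cells had under 100 UMIs and Wnt6 in theca-like cells, at -0.65 (29.3 CPM in WT, 18.6 CPM in KO), was past 1.5-fold. The number of all genes past 1.5-fold was 743 (germ-like), 423 (granulosa-like), 475 (theca-like) and 215 (epithelia-like). With common limits on cells, the last 3 became 942, 1260 and 668. Without Scrublet doublets it was 272 in granulosa-like and 209 in theca-like cells, and without cells carrying another class's markers 208 and 210. With thinned cells it was 382 in germ-like, 251 in granulosa-like and 236 in theca-like cells, and with a minimum of 20 UMIs 1704, 1233, 1329 and 991 in the 4 classes. The share of called genes that were higher in KO moved from 58.2% to 72.5% in granulosa-like and from 60.9% to 84.3% in epithelia-like cells under common limits, and to 33.8% in granulosa-like and 56.9% in theca-like cells (75.2% before) without Scrublet doublets. Without cells carrying another class's markers it was 44.2% and 49.5%, and with thinned cells 73.7% in epithelia-like cells. The cause was not tested.

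Germ-like ratios of Lgr4 (-0.36 to -0.17), Znrf3 (-0.24 to -0.18), Axin2 (-0.22 to -0.10), Wnt6 (0.17 to 0.59) and Rspo1 (0.14 to 0.53) kept their sign in 9 of 9 alternatives. Those of Wnt5a, Lgr5 and Ctnnb1 also did so. Germ-like Wnt4 kept its sign in 8 of 9 and Sfrp1 in 3 of 9 (-0.31 to 0.10). Germ-like Wnt6 lay outside its counting interval in 2 of 9, and Lgr4, Lgr5, Ctnnb1 and Sfrp1 in 1 of 9 each. Small somatic ratios did not all keep their sign either. Wnt6 in theca-like cells ran from -0.65 to 0.42 (-0.05 as reported), Wnt6 in granulosa-like cells ran from -0.17 to 0.07, Wnt4 in theca-like cells from -0.32 to 0.07, and Rspo1 in theca-like cells from -0.32 to 0.15. The class contrasts moved less relative to their size, with Wnt6 in WT granulosa-like over germ-like cells at log2 ratios of 7.25 to 8.10. The removal of doublets from the cluster contrasts of Axin2 and Lgr5 was chosen after seeing the data. Lgr5 in cluster 0 over cluster 15 was at a log2 ratio of 3.90 in WT and 3.11 in KO without Scrublet doublets. Counting error and 1 library per genotype limit all ratios of genes under about 100 UMIs.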

Other observations

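The endothelia-like cells were too few for a firm level of the receiving genes other than Ctnnb1. In WT, 30 such cells gave 4 UMIs of Lgr4 (10.8 CPM, 2.94-27.6), 4 of Axin2 (10.8 CPM, 2.94-27.6) and 6 of Znrf3 (16.2 CPM, 5.94-35.2). In KO, 136 cells gave 16, 16 and 5 UMIs, or 11.5, 11.5 and 3.59 CPM. Immune-like cells (31 in WT, 50 in KO) had no UMI of Axin2 in WT and 4 in KO, and no UMI of Wnt5a in either library.

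Other genes of the target list varied in their class profile in WT. Sp5, a transcription factor gene induced by WNT, was at 83.3 CPM in epithelia-like, 56.7 CPM in granulosa-like, 4.19 CPM in theca-like and 3.84 CPM in germ-like cells. Rnf43, which encodes the ligase related to Znrf3, was at 14.7, 15.2, 1.33 and 0.589 CPM in the same classes, whereas Znrf3 itself was highest in germ-like cells. Lef1 was at 44.7, 39.5, 19.7 and 5.86 CPM. Co-receptor gene Lrp6 and receptor gene Fzd3 were as high in germ-like as in somatic-like cells, at 62.7 CPM and 28.7 CPM against 40.9 to 57.5 CPM and 20.9 to 25.3 CPM. These genes were picked after their values were seen, and the levels carry counting error only.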
